A study of Mus musculus with 11 samples.

Results

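The 24 h response of haematopoietic stem cells to platelet depletion was compared between cells that carry surface CD41 and cells that lack it. The contrast used all 11 of the 11 libraries of the study. For each gene the change from control to platelet-depleted mice in CD41- cells was subtracted from the same change in CD41+ cells, on the log2 scale. The result is called the difference of responses here, and a negative value means that the change in CD41+ cells lay below that in CD41- cells. Stem cells were sorted from bone marrow of C57BL/6 mice as Lin- c-Kit+ Sca-1+ CD48- CD150+ cells and divided by CD41. The groups were 3 libraries of CD41+ cells from platelet-depleted mice, 2 of CD41+ cells from mice given control rabbit serum, 3 of CD41- cells from platelet-depleted mice and 3 of CD41- cells from mice given control rabbit serum. Each library was made from RNA of 1000 cells pooled from 3 mice, so replicates are separate pools and the mice within a pool cannot be told apart. The labels do not name the agent used for depletion. The series title ties the stem cell response to acute thrombocytopenia to receptor tyrosine kinases.

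CD41 is the integrin alpha chain Itga2b, which pairs with Itgb3 to form the fibrinogen receptor of platelets and megakaryocytes, and stem cells that carry it are known for a bias towards the platelet lineage. Most stem cells of the adult mouse marrow are quiescent, and loss of blood cells is known to draw them into the cell cycle. A cell that leaves quiescence turns on cyclins and E2F targets, then the genes of DNA replication, and last the genes of chromosome segregation and cytokinesis. The last are largely controlled through the DREAM and MuvB complexes and the factors Mybl2 and Foxm1.

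Library totals were 974196 to 4984950 counts in depleted CD41+ cells, 3775035 to 4266784 in control CD41+ cells, 4168395 to 9950423 in depleted CD41- cells and 3459754 to 3878931 in control CD41- cells. The lowest total belonged to depleted CD41+ replicate 1, where 3 counts correspond to 3.08 CPM (the count scaled to library size). Such floors reflect counting error alone, because PCR copies of a molecule were counted as separate reads. The stem cell genes Hlf, Mecom, Procr, Fgd5, Slamf1, Ly6a and Kit had counts in all 11 libraries. The RNA of the sort marker followed the label, with 219, 246 and 169.8 CPM of Itga2b in depleted CD41+ libraries, 425 and 354 in control CD41+ libraries, 44.4, 37.5 and 44.7 in depleted CD41- libraries and 98.5, 46.1 and 62.5 in control CD41- libraries. Transcripts of 17 neutrophil granule genes, which stem cells are not known for, took up 1.65 to 5.77% of counts in depleted CD41+ libraries, 2.78 to 8.51% in control CD41+ libraries, 0.538 to 4.11% in depleted CD41- libraries and 1.06 to 1.71% in control CD41- libraries. In bulk samples, fewer cells of a type and less RNA per cell cannot be told apart.

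No gene passed an adjusted p of 0.05 for the difference of responses among the 13448 genes tested with edgeR's quasi-likelihood test, which is 0% of genes, and the smallest adjusted p was 0.304. At an unadjusted p under 0.05 there were 825 genes, 6.13% of those tested. Of these, 383 had a positive difference (2.85% of genes) and 442 a negative one (3.29%). DESeq2 called 34 of the 25078 genes it fitted at an adjusted p under 0.05, 9 positive and 25 negative. Of the 34, 15 are among the 135 genes of the cell cycle lists, all negative. Of these 15, 12 are on the mitosis list of 50 genes. The adjusted p of DESeq2 was 0.0024 for Rrm1, 0.00372 for both Cdca8 and Ccnb2, and 0.00671 for both Nusap1 and Cdca5. limma voom called 0 genes. A fit with adjoining title numbers as a block called 2 genes, both positive. Values below therefore describe genes that stand at the edges of a comparison without calls by edgeR, and unadjusted p-values are given as a ranking.

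Each fraction's own response gave calls in the same fit. Depletion changed 14 genes in CD41+ cells at an adjusted p under 0.05, 0.104% of genes, with 5 higher (0.0372%) and 9 lower (0.0669%). In CD41- cells it changed 429 genes, 3.19% of genes, with 309 higher (2.3%) and 120 lower (0.892%). These counts come from 3 against 2 libraries in CD41+ cells and 3 against 3 in CD41- cells, and the number of calls is not a test of a difference between fractions. Single libraries moved both counts. In CD41+ cells, 0 genes were called when depleted replicate 2, depleted replicate 3 or control replicate 1 of this fraction was left out, 4 when its control replicate 2 was, and 57 when its depleted replicate 1, the shallow library, was. Leaving out libraries of the CD41- fraction also moved the CD41+ count, to 3 and 2 (depleted replicates 1 and 3) and 8 (control replicate 1). In CD41- cells the count was 175, 256 and 169 when depleted replicates 1, 2 and 3 of that fraction were left out in turn, and 215 when its control replicate 3 was.

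The negative side of the difference was led by cell cycle genes. Of the 12 genes with the smallest p and a negative difference, Cdca8, Cdca5, Nusap1, Ncaph, Sgo1 and Spc24 belong to the list of mitosis genes, Ccnb2 and Ccnf to the cyclins, and Rrm1 to DNA replication. The remaining Tacc3, Asf1b and Nrm are a spindle protein, a histone chaperone of replicating cells and a nuclear envelope protein. Cdca8 encodes borealin, a subunit of the chromosomal passenger complex that corrects the attachment of chromosomes to the spindle (chr4:124918465-124939311 in GRCm38). It stood at 264, 260.5 and 248 CPM in depleted CD41+ libraries against 164 and 175 in control CD41+ libraries, and at 241, 210.5 and 244 in depleted CD41- libraries against 55.6, 74.1 and 71 in control CD41- libraries. The 3 control CD41- libraries were the lowest, both depleted groups stood close together, and control CD41+ libraries lay between them. The response of CD41+ cells was 0.60 ± 0.17 on the log2 scale (± SE, edgeR adjusted p = 0.184) and that of CD41- cells 1.79 ± 0.16 (adjusted p = 9.49e-05). Their difference was -1.19 ± 0.22 (95% interval -1.67 to -0.71, unadjusted p = 0.000113).

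Nusap1, which bundles microtubules of the spindle, followed the same order of groups. Its levels were 301, 339 and 286 CPM in depleted CD41+ libraries against 198 and 227 in control CD41+ libraries, and 322, 262 and 342 in depleted CD41- libraries against 68.8, 95.5 and 47.7 in control CD41- libraries (difference -1.59 ± 0.32, interval -2.26 to -0.91). Cdca5, sororin, which holds sister chromatids together, had 136, 102 and 90.3 CPM in depleted CD41+ libraries against 145 and 115 in control CD41+ libraries, and 108, 121 and 113 in depleted CD41- libraries against 39.1, 52.9 and 25.3 in control CD41- libraries. Here the depleted and control CD41+ libraries overlapped, while every depleted CD41- library lay above every control CD41- library. The same was true of Ccnf, the F-box protein cyclin F, with 196, 168 and 135 CPM in depleted CD41+ libraries against 137 and 170.0 in control CD41+ libraries, and 132, 151 and 132 in depleted CD41- libraries against 56.7, 42.7 and 29.2 in control CD41- libraries. The difference was -1.81 ± 0.36 for Cdca5 (interval -2.58 to -1.05) and -1.59 ± 0.33 for Ccnf (interval -2.29 to -0.88). Over all genes tested, 25% had depleted and control CD41- libraries that did not overlap and 27% had CD41+ libraries that did not.

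**Figure D1:**
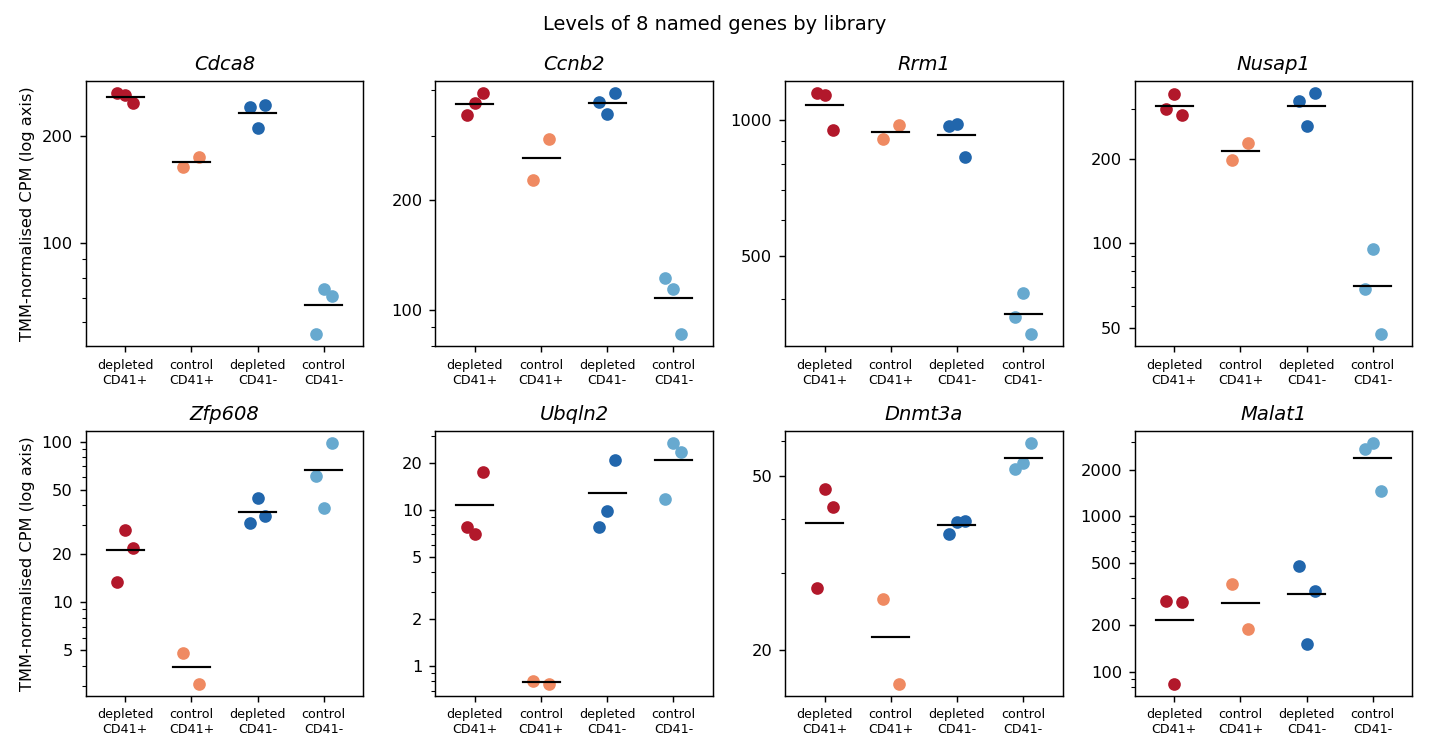
TMM-normalised CPM of 8 named genes (vertical log axes) in each library, with 1 point per library, a line at the group mean, and the groups side by side (3 depleted CD41+, 2 control CD41+, 3 depleted CD41- and 3 control CD41- libraries). Cdca8, Ccnb2, Rrm1 and Nusap1 are lowest in the control CD41- libraries, Zfp608, Ubqln2 and Dnmt3a are lowest on average in the control CD41+ libraries, and Malat1 is highest in the control CD41- libraries.

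All 50 mitosis genes on the list were measured. Of these, 43 had a negative difference and 7 a positive one, with a median of -1.07 against -0.003 over all genes tested. At an unadjusted p under 0.05, 35 were negative (70% of the list, against 3.29% of all genes) and 1 was positive. The list was written with earlier results of these data known, so its count is a description. At an adjusted p under 0.05, depletion raised 1 of the 50, Smc2, in CD41+ cells (against 0.0372% of all genes). In CD41- cells it raised 42 of the 50 (against 2.3%). By sign alone, 48 of the 50 had a positive response in CD41+ cells and 49 in CD41- cells. Of all 13448 genes, 6657 and 6420 did. The median response of the list was 0.60 in CD41+ cells and 1.56 in CD41- cells. At an unadjusted p under 0.05, the responses were positive for 27 of the 50 in CD41+ cells (6.19% of all genes) and for 48 in CD41- cells (9.18%).

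Within the mitosis list, the kinetochore gene Spc24, which couples chromosomes to microtubules, had a difference of -1.33 ± 0.29, and its partners Ndc80 (-1.12 ± 0.34), Nuf2 (-1.01 ± 0.42) and Spc25 (-1.08 ± 0.25) were negative as well. The spindle checkpoint genes Bub1 and Bub1b had differences of -1.32 ± 0.40 and -1.23 ± 0.36 (unadjusted p = 0.00502 and 0.00444). Sgo1, shugoshin, which protects cohesion at centromeres, had the most negative value of the list, -1.85 ± 0.38. It stood at 76.7, 101 and 78.7 CPM in depleted CD41+ libraries against 74 and 73.8 in control CD41+ libraries, and at 85.2, 89 and 67.6 in depleted CD41- libraries against 12.4, 28.3 and 16.8 in control CD41- libraries. The Aurora kinase genes Aurkb and Aurka, with roles at centromeres and spindle poles, had differences of -1.31 ± 0.33 and -0.77 ± 0.33. Plk1, the polo-like kinase of mitotic entry, had -1.04 ± 0.32, and Cdc20 and Ube2c, through which the anaphase-promoting complex degrades cyclin B, had -1.06 ± 0.30 and -1.12 ± 0.25. The cytokinesis genes Kif23 (-1.27 ± 0.27), Racgap1 (-1.12 ± 0.25), Prc1 (-0.99 ± 0.25) and Ect2 (-1.50 ± 0.43) had unadjusted p-values from 0.000362 to 0.00389.

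Not all mitosis genes had a negative value. Cenpe, a kinesin of the kinetochore, had a difference of 1.52 ± 0.69 (unadjusted p = 0.0457), Mki67, the proliferation marker that coats mitotic chromosomes, 0.80 ± 0.92 (unadjusted p = 0.408), and Pttg1, securin, 0.75 ± 0.39 (unadjusted p = 0.0713). The condensin subunits varied. Ncaph, Ncapg and Ncapd2 had differences of -1.26 ± 0.25, -0.98 ± 0.31 and -1.04 ± 0.39, while the paired ATPases Smc2 and Smc4 of the same complex had 0.41 ± 0.30 and 0.00 ± 0.28. Smc2 rose in both fractions, with 95.7, 161 and 109.5 CPM in depleted CD41+ libraries against 43.6 and 49.8 in control CD41+ libraries (adjusted p = 0.0349), and 86.4, 97.4 and 98.1 in depleted CD41- libraries against 43.7, 48.4 and 49.6 in control CD41- libraries (adjusted p = 0.0155). The depleted and control libraries of Smc2 did not overlap in either fraction. The same held for 27% of all genes in CD41+ cells and 25% in CD41- cells.

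The promoters of these genes are shown because the genes stood together at the negative end and because their cell cycle control is known to run through short sequence elements. The elements searched, on both strands, were the CCAAT box (CCAAT, or ATTGG on the other strand), bound by NF-Y, the cell cycle genes homology region CHR (TTTGAA or TTCAAA), bound by MuvB complexes, and the E2F letters TTCCCGC and TTGGCGC (or GCGGGAA and GCGCCAA). Sequences are from RefSeq on GRCm38.p6, 250 bases before to 50 bases after the annotated start, 5′ to 3′ on the gene's strand, with the matches in capitals. The windows are chr4:124936868-124937167 (minus strand) for Cdca8, chr9:70421505-70421804 (minus strand) for Ccnb2, chr19:6084847-6085146 (plus strand) for Cdca5 and chr7:102441445-102441744 (plus strand) for Rrm1.
Cdca8: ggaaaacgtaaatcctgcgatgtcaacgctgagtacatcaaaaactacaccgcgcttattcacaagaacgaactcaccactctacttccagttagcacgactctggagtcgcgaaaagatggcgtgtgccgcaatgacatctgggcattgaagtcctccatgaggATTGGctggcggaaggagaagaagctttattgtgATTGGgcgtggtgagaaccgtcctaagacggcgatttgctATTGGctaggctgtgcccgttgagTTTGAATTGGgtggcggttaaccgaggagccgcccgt
Ccnb2: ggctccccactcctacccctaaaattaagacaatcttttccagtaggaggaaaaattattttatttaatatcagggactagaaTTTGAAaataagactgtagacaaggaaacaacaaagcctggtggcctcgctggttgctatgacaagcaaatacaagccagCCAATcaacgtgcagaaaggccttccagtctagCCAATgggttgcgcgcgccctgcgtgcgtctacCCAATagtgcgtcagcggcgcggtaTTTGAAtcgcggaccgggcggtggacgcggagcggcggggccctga
Cdca5: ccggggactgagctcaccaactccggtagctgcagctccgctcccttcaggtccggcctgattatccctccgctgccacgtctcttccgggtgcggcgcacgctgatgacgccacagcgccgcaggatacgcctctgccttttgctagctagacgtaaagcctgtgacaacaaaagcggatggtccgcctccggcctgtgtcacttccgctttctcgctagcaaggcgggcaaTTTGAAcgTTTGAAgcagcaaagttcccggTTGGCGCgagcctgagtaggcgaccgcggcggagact
Rrm1: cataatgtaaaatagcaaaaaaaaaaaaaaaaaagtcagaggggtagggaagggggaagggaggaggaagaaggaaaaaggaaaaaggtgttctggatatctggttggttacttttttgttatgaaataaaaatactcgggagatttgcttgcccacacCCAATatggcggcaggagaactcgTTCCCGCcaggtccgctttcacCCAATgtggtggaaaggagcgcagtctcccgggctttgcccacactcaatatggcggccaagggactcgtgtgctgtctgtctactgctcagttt

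The Cdca8 window held 4 CCAAT boxes and 1 CHR, of which the last box shares a base with the CHR. The Ccnb2 window held 3 CCAAT boxes and 2 CHRs, the Cdca5 window 2 CHRs and 1 E2F match, and the Rrm1 window 2 CCAAT boxes and 1 E2F match. No match was found in the windows of Nusap1 and Tacc3. Among 47 promoters of 43 mitosis genes, 74.5% held a CCAAT box, 76.6% a CHR, 63.8% both and 19.1% an E2F match. Among 45 promoters of 39 replication genes the shares were 60.0%, 11.1%, 6.67% and 51.1%, and among 29 promoters of 24 cyclin, CDK and E2F genes 58.6%, 37.9%, 31.0% and 27.6%. Of all 32851 RefSeq promoters of this length, 37.4% held a CCAAT box, 17.9% a CHR, 6.95% both and 6.81% an E2F match. Of the 12680 promoters of genes tested, the shares were 37.6%, 12.5%, 4.96% and 11.6%. A match describes the letters of the window and is not evidence of binding.

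DNA replication genes, as a list, were also lowest in control CD41- cells, with a smaller median difference. Their control CD41+ libraries were not always below the depleted libraries. Rrm1, the large subunit of ribonucleotide reductase, which makes deoxyribonucleotides, stood at 1147, 1136 and 951 CPM in depleted CD41+ libraries against 908 and 976 in control CD41+ libraries, and at 972, 978 and 826 in depleted CD41- libraries against 366, 414 and 335 in control CD41- libraries. Its CD41+ libraries overlapped and its control CD41- libraries were the 3 lowest of all. The response was 0.19 ± 0.16 in CD41+ cells (adjusted p = 0.673) and 1.32 ± 0.15 in CD41- cells (adjusted p = 0.000424), and the difference was -1.12 ± 0.22 (interval -1.59 to -0.66, unadjusted p = 0.000133). The small subunit Rrm2 had a difference of -1.39 ± 0.36, and the thymidine-supply genes Tyms and Tk1 had -1.21 ± 0.34 and -1.11 ± 0.29. Mcm5, a subunit of the replicative helicase, had 548, 580.1 and 516 CPM in depleted CD41+ libraries against 513 and 597 in control CD41+ libraries, and 508, 518 and 452 in depleted CD41- libraries against 271, 279 and 173 in control CD41- libraries. Its difference was -1.05 ± 0.26, and the other subunits Mcm2, Mcm3, Mcm4, Mcm6 and Mcm7 had -0.46, -0.62, -0.65, -0.81 and -0.66.

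Prim2, the large primase subunit, had 136, 115 and 97.3 CPM in depleted CD41+ libraries against 86.3 and 113 in control CD41+ libraries, and 117, 94.9 and 109 in depleted CD41- libraries against 37.4, 45.3 and 44.5 in control CD41- libraries (difference -1.13 ± 0.28). The origin licensing genes Cdc6 and Cdt1 had differences of -1.16 ± 0.31 and -0.76 ± 0.27, and Cdc45, which activates the helicase, had -1.40 ± 0.36. Over all 50 replication genes the median difference was -0.66. At an unadjusted p under 0.05, 25 were negative (50% of the list, against 3.29% of all genes) and 0 were positive. Orc1, Gins2, Clspn, Rfc1 and Rfc3 had positive values with unadjusted p-values from 0.355 for Rfc1 to 0.737 for Orc1. At an adjusted p under 0.05, depletion raised 0 of the 50 in CD41+ cells (0.0372% of all genes) and 25 in CD41- cells (2.3%). By sign alone, 41 of the 50 had a positive response in CD41+ cells and 50 in CD41- cells. The median responses were 0.15 in CD41+ cells and 0.83 in CD41- cells.

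The 35 cyclins, cyclin-dependent kinases, E2F factors and partners had a median difference of -0.59. At an unadjusted p under 0.05, 14 were negative (40% of the list, against 3.29% of all genes) and 1 was positive (2.86%, against 2.85%). Ccnb2, a B-type cyclin of mitotic entry, stood at 341, 369.6 and 393 CPM in depleted CD41+ libraries against 227 and 295 in control CD41+ libraries, and at 372, 345 and 393 in depleted CD41- libraries against 123, 114 and 86.1 in control CD41- libraries (difference -1.28 ± 0.25, interval -1.81 to -0.75). Ccna2, the cyclin of S and G2 phase, had 822, 608 and 488 CPM in depleted CD41+ libraries against 468 and 471 in control CD41+ libraries, and 515, 478 and 529.5 in depleted CD41- libraries against 186, 205 and 145 in control CD41- libraries (difference -1.07 ± 0.28). In both genes the depleted libraries lay above the control libraries of the same fraction, by a wider gap in CD41- cells. Libraries without overlap were found for 27% of all genes in CD41+ cells and 25% in CD41- cells. The upstream regulators Foxm1, E2f8 and E2f2 had differences of -1.55 ± 0.53, -1.53 ± 0.45 and -2.29 ± 0.66. Mybl2, E2f1 and E2f3 had -0.59 ± 0.61, 0.00 ± 0.61 and 0.31 ± 0.48. Foxm1 and E2f8 rose in CD41- cells (2.04 ± 0.37 and 1.74 ± 0.31). E2f2 instead had its highest group mean in control CD41+ cells. Its responses were -1.50 ± 0.49 in CD41+ cells and 0.79 ± 0.44 in CD41- cells (edgeR adjusted p = 0.242 and 0.397). G1 genes did not share a sign. The D-type cyclins Ccnd1 and Ccnd2 had 0.62 ± 0.57 and 0.44 ± 0.30, whereas Ccnd3 had -0.57 ± 0.22 (unadjusted p = 0.0233). Of their partner kinases, Cdk4 had -0.19 ± 0.20 and Cdk6 0.66 ± 0.25 (unadjusted p = 0.0201), the positive value counted above. At the step into S phase, the cyclin Ccne2 and its kinase Cdk2 had -1.09 ± 0.30 and -0.63 ± 0.22 (unadjusted p = 0.00254 and 0.0119), and Ccne1 had 0.09 ± 0.52. Cdk6 had a response of -0.15 ± 0.19 in CD41+ cells and fell in CD41- cells (-0.81 ± 0.17, adjusted p = 0.0172).

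Library by library, the mean deviation of the mitosis genes from their average over all libraries was 0.23, 0.76 and 0.56 in depleted CD41+ replicates 1, 2 and 3 and -0.20 and -0.06 in control CD41+ replicates 1 and 2, on the log2 scale. It was 0.60, 0.48 and 0.65 in depleted CD41- replicates 1, 2 and 3 and -0.88, -0.99 and -1.15 in control CD41- replicates 1, 2 and 3. The depleted groups overlapped each other, and control CD41+ libraries stood above all control CD41- libraries and below all depleted libraries. For the replication genes, the mean over libraries was 0.31 in depleted CD41+ cells against 0.12 in control CD41+ cells, and 0.26 in depleted CD41- cells against -0.65 in control CD41- cells. Of the 442 genes with a negative difference at an unadjusted p under 0.05, 80.1% had their lowest group mean in control CD41- cells and 19.5% in depleted CD41+ cells, the groups between which a negative difference nearly confines it by construction. Neutrophil granule genes had a negative median difference as well, -1.10 over 17 genes with 0 at an unadjusted p under 0.05. Without control CD41+ replicate 2, the library with the most neutrophil transcripts, the neutrophil median was 0.20, and the mitosis median was -0.97 with 27 negative genes at an unadjusted p under 0.05. Any further part of neutrophil transcripts in the results was not tested.

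**Figure D2:**
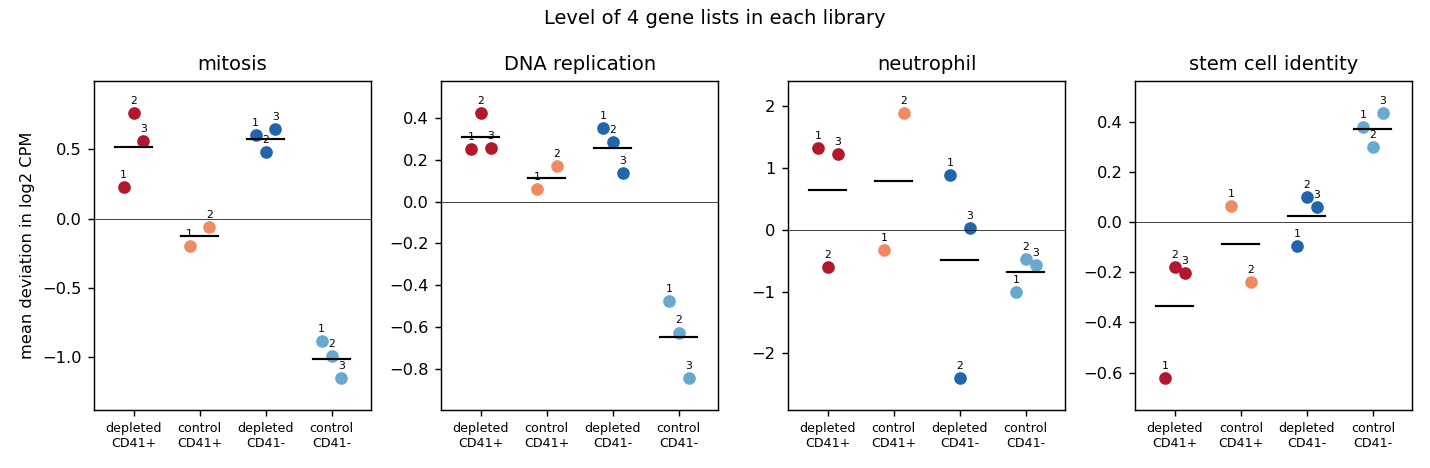
Mean deviation in log2 CPM (vertical axes) of the mitosis, DNA replication, neutrophil and stem cell identity genes from their mean over the 11 libraries, with 1 numbered point per library and a line at the group mean. For mitosis the control CD41- libraries lie between -1.15 and -0.88 and the control CD41+ libraries between -0.20 and -0.06, while both depleted groups lie above 0. Neutrophil genes spread widely within groups, up to 1.90 in control CD41+ replicate 2.

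Transcript length moved with the difference. Over 10803 genes of annotated length that averaged 5 CPM or more, the longest transcript of a gene and its difference had a Spearman correlation of 0.14 across genes, which are not independent. The median difference was 0.31 in the eighth of genes with the longest transcripts (6081 bases or more) and between -0.09 and 0.06 in the other 7. Genes with a positive difference at an unadjusted p under 0.05 had a median length of 5177 bases and those with a negative one 3362.5 bases, against 3158 over all genes tested. Among mitosis genes, 33 of the 41 with transcripts of up to 5000 bases were negative at an unadjusted p under 0.05, with a median of -1.12, against 2 of the 9 longer ones, with a median of -0.31. Long transcripts were low in depleted CD41+ replicate 1 (median deviation -0.46 in the longest eighth) and control CD41+ replicates 1 and 2 (-0.15 and -0.28) and high in control CD41- replicates 1 and 3 (0.34 and 0.31). With a length offset per library, added after seeing this, 0 genes passed the adjusted threshold and the mitosis list had a median of -1.01 with 35 negative genes. Any other part of length in the results was not tested.

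**Figure D3:**
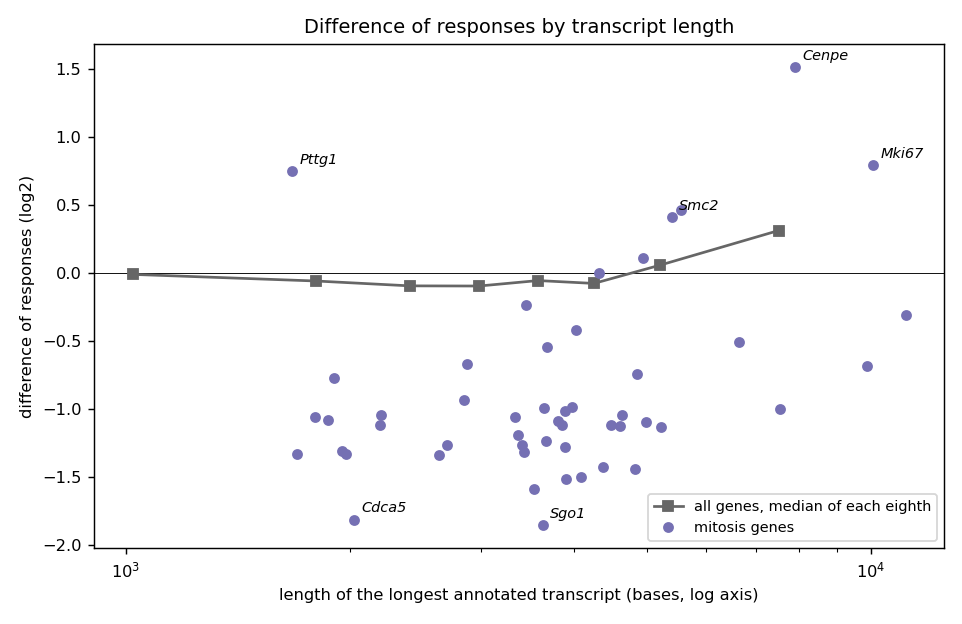
Difference of responses (vertical axis, log2) against the length of the longest annotated transcript (horizontal log axis, bases) for the 50 mitosis genes, with the median of all genes in 8 bins of length as squares. Most mitosis genes lie near -1 at all lengths up to 5000 bases, while Cenpe at 1.52 and Mki67 at 0.80 are among the long transcripts and the median of all genes reaches 0.31 in the longest bin.

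On the positive side, the 12 genes with the smallest p were Zfp608, Ubqln2, Wwc2, Clock, Slain2, Map3k7, Usp45, Trim56, Foxp1, Ubn2, Tsc1 and Dnmt3a. Zfp608, a zinc finger protein, stood at 13.3, 28 and 21.6 CPM in depleted CD41+ libraries against 4.81 and 3.1 in control CD41+ libraries, and at 31.2, 44.2 and 34.5 in depleted CD41- libraries against 61.1, 38.7 and 98.3 in control CD41- libraries. Its control CD41+ libraries were the lowest of the 11, and its CD41- groups overlapped. The response of CD41+ cells was 2.47 ± 0.47 (adjusted p = 0.078), that of CD41- cells -0.85 ± 0.34 (adjusted p = 0.213), and the difference 3.32 ± 0.58 (interval 2.08 to 4.56, unadjusted p = 4.9e-05). DESeq2 called Zfp608 at an adjusted p of 0.000369, within a range of 5.18e-07 (no filter on low counts) to 0.810 (without depleted CD41+ replicate 3) over all alternatives. Ubqln2, a shuttle protein that hands ubiquitinated proteins to the proteasome, had 7.79, 7.06 and 17.5 CPM in depleted CD41+ libraries against 0.802 and 0.774 in control CD41+ libraries, and 7.74, 9.84 and 21 in depleted CD41- libraries against 11.8, 27 and 23.6 in control CD41- libraries. The control CD41+ values correspond to 3 counts per library, so its fitted difference (4.46 ± 0.88) rests on very few counts in that group.

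Several of these genes are known regulators of stem cells or growth. Dnmt3a, the de novo DNA methyltransferase, whose loss in mouse is known to expand stem cells, had 27.8, 46.8 and 42.5 CPM in depleted CD41+ libraries against 26.2 and 16.8 in control CD41+ libraries, and 36.9, 39.4 and 39.5 in depleted CD41- libraries against 52, 53.7 and 59.6 in control CD41- libraries. Its libraries separated by treatment in both fractions and in opposite directions, which choice by a positive difference favours. Over all genes, libraries separated by treatment for 27% in CD41+ cells and for 25% in CD41- cells. The difference of Dnmt3a was 1.41 ± 0.37 (interval 0.61 to 2.21, unadjusted p = 0.002). Foxp1, a forkhead repressor, had 41.2, 51.3 and 60 CPM in depleted CD41+ libraries against 28.1 and 39 in control CD41+ libraries, and 72.1, 71.6 and 76.4 in depleted CD41- libraries against 119, 99.2 and 106 in control CD41- libraries (difference 1.18 ± 0.30). Tsc1, which restrains mTORC1 and is known to keep mouse stem cells quiescent, had 7.79, 9.21 and 9.32 CPM in depleted CD41+ libraries against 5.08 and 1.55 in control CD41+ libraries, and 8.35, 4.4 and 6.15 in depleted CD41- libraries against 12.4, 12.8 and 22.9 in control CD41- libraries (difference 2.75 ± 0.73). Clock, a circadian transcription factor, and Map3k7, the kinase TAK1 of NF-kB signalling, had differences of 3.38 ± 0.75 and 2.48 ± 0.59. Neither response of Dnmt3a, Foxp1, Tsc1, Clock or Map3k7 passed the adjusted threshold in edgeR, and all 12 genes have transcripts longer than the median of genes tested, from 3344 bases for Ubqln2 to 14644 for Ubn2. Of the 383 genes with a positive difference at an unadjusted p under 0.05, 83.0% had their lowest group mean in control CD41+ cells and 14.1% in depleted CD41- cells, and 71.3% had their highest in control CD41- cells and 24.5% in depleted CD41+ cells. Choosing genes by a positive difference favours these groups by construction.

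Genes that restrain the cell cycle or mark quiescence had a median difference of 0.66 over 23 genes, 17 of them positive. At an unadjusted p under 0.05, 3 were positive (Tsc1, Malat1 and Neat1, 13% of the list, against 2.85% of all genes) and 0 negative. All 3 have transcripts in the longest eighth of genes. Neat1 had 25.6, 4.70 and 4.37 CPM in depleted CD41+ libraries against 2.94 and 6.45 in control CD41+ libraries. Only depleted replicate 1 thus lay above both controls, and the difference was 1.05 to 2.87 without each library. Malat1, a nuclear long noncoding RNA (chr19:5795690-5802672 in GRCm38), stood at 284, 83.9 and 282 CPM in depleted CD41+ libraries against 366 and 189.9 in control CD41+ libraries, and at 477, 151 and 329 in depleted CD41- libraries against 2702, 2979 and 1455 in control CD41- libraries. It was high in the 3 control CD41- libraries alone. Its CD41+ libraries overlapped (response -0.37 ± 0.63), Malat1 fell in CD41- cells (-2.90 ± 0.60, adjusted p = 0.0385), and the difference was 2.52 ± 0.87 (interval 0.53 to 4.51). With the block of adjoining title numbers, Malat1 had a difference of 2.82 ± 0.33 (adjusted p = 0.0251) and Gm37376, annotated on the opposite strand within Malat1, had 2.85 ± 0.35 (adjusted p = 0.0251), the 2 genes called in that fit. The adjusted p of the difference for Malat1 ranged over all alternatives from 5.07e-14 (no filter on low counts) to 1 (without depleted CD41+ replicate 3). Whether reads were counted by strand is not known here, and without it the reads of this pair cannot be told apart. The classical inhibitors Cdkn1a, Cdkn1b and Cdkn1c had differences of 0.77 ± 0.78, 0.66 ± 0.77 and 1.32 ± 1.05, none at an unadjusted p under 0.05. Txnip, an inhibitor of glucose uptake that is high in resting cells, fell in both fractions, to 271, 152 and 157 CPM in depleted CD41+ libraries against 509.8 and 447 in control CD41+ libraries, and to 289.7, 299 and 281 in depleted CD41- libraries against 533, 726 and 718 in control CD41- libraries (difference -0.14 ± 0.31).

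The 36 genes of stem cell identity had a median difference of 0.19. At an unadjusted p under 0.05, 1 was positive and 1 negative (2.78% of the list each, against 2.85% and 3.29% of all genes). Among CD41+ libraries, leaving out depleted replicate 1 or 2 gave medians of 0.30 and 0.02, and leaving out control replicate 1 or 2 gave 0.43 and 0.08. Leaving out depleted replicate 1 of the CD41- fraction gave 0.12. Their responses at that level were negative for 6 in CD41+ cells (6.05% of all genes) and for 14 in CD41- cells (7.71%). Slamf1, which encodes the sort marker CD150, stood at 44.5, 27.2 and 39 CPM in depleted CD41+ libraries against 56.9 and 47 in control CD41+ libraries, and at 32.4, 29.5 and 33.8 in depleted CD41- libraries against 25.3, 20.7 and 16.8 in control CD41- libraries. Depleted libraries were below control libraries in CD41+ cells and above them in CD41- cells. Of all genes, 27% had no overlap in CD41+ cells and 25% in CD41- cells, in either direction. The difference of Slamf1 was -1.13 ± 0.38 (interval -1.95 to -0.31, unadjusted p = 0.0103). Erg, an ETS factor that stem cell maintenance in mouse needs, had 7.79, 9.8 and 13.7 CPM in depleted CD41+ libraries against 5.88 and 6.19 in control CD41+ libraries, and 17, 15.3 and 19.9 in depleted CD41- libraries against 25.3, 20.9 and 19.7 in control CD41- libraries (difference 1.16 ± 0.48). Hlf, a transcription factor of long-term stem cells, had a response of -0.49 ± 0.25 in CD41+ cells and fell in CD41- cells (-0.91 ± 0.22, adjusted p = 0.0367), with a difference of 0.41 ± 0.33. Egr1, an immediate early factor linked to stem cell quiescence in mouse, had 1.16 ± 0.57, and Mecom, Gata2, Meis1 and Procr had differences of 0.33 ± 0.52, 0.12 ± 0.39, 0.25 ± 0.23 and -0.21 ± 0.34. The 95% interval of the difference was -2.02 to 1.75 for Kit, -0.90 to 1.26 for Ly6a, which encodes Sca-1, -1.65 to 1.38 for Cd48 and -1.29 to 0.24 for Ptprc, which encodes CD45.

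Receptor tyrosine kinases, the class named in the series title, had a median difference of -0.05 over 25 genes. At an unadjusted p under 0.05, 1 was positive (4% of the list, against 2.85% of all genes) and 0 were negative. That median did not keep its sign, being 0.26 without depleted CD41+ replicate 1, -0.29 without control CD41- replicate 3 and 0.33 with limma voom. The positive gene was Insr, the insulin receptor (chr8:3122061-3279617 in GRCm38). It stood at 12.2, 7.25 and 19.2 CPM in depleted CD41+ libraries against 2.14 and 4.64 in control CD41+ libraries, and at 13.2, 8.17 and 16.1 in depleted CD41- libraries against 10.2, 15.2 and 7.3 in control CD41- libraries. The control CD41+ libraries were the lowest of the 11, and the CD41- groups overlapped. The response was 1.91 ± 0.59 in CD41+ cells (adjusted p = 0.215) and 0.20 ± 0.46 in CD41- cells (adjusted p = 0.876), and the difference was 1.71 ± 0.74 (interval 0.14 to 3.29, unadjusted p = 0.0353, adjusted p = 0.757). Its longest transcript has 9355 bases, within the longest eighth of genes, and its counts are low.

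Igf1r, the receptor of insulin-like growth factor 1, stood at 13.3, 36.1 and 58 CPM in depleted CD41+ libraries against 39.5 and 37.4 in control CD41+ libraries, and at 51.9, 47.5 and 54.4 in depleted CD41- libraries against 93.5, 65.7 and 68.1 in control CD41- libraries (difference 0.54 ± 0.50). Kit, the receptor of stem cell factor and a gate of the sort, had 83.4, 501 and 221 CPM in depleted CD41+ libraries against 564 and 356 in control CD41+ libraries, and 322, 554 and 364 in depleted CD41- libraries against 619.6, 419 and 867 in control CD41- libraries. Its depleted and control libraries overlapped in both fractions, its lowest value was that of depleted CD41+ replicate 1, and the difference was -0.13 ± 0.83. Erbb3 and Met, listed next by p, had -1.22 ± 0.69 and 2.04 ± 1.17 (unadjusted p = 0.101 and 0.104). Downstream of these receptors, the 33 insulin and PI3K pathway genes had a median difference of 0.05. At an unadjusted p under 0.05, 2 were positive (6.06% of the list, against 2.85% of all genes), Tsc1 and Gsk3a, and 0 were negative. Tsc1 was also counted among the quiescence genes above. Gsk3a had only 0.80 and 0 CPM in control CD41+ libraries. Its difference of 2.99 ± 1.38 was 2.016 to 6.865 without each library. Foxo1, a factor that PI3K signalling holds out of the nucleus, had 1.24 ± 0.69. The kinases Akt1, Akt2 and Mtor had differences of -0.02 ± 0.35, -0.00 ± 0.28 and 0.38 ± 0.54.

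Of 26 genes of the JAK and STAT pathway, 0 had an unadjusted p under 0.05 for the difference, and their median was -0.02. After Socs2, the smallest p-values belonged to Csf2rb, a cytokine receptor chain (-1.03 ± 0.56), and to Bcl2l1, which encodes the survival factor Bcl-xL (-0.68 ± 0.38). Socs2, a feedback inhibitor induced by STAT5, rose in both fractions. It had 107, 93.1 and 108 CPM in depleted CD41+ libraries against 34.5 and 38.2 in control CD41+ libraries (response 1.49 ± 0.20, adjusted p = 0.0228), and 176, 178 and 222 in depleted CD41- libraries against 46.2, 53.1 and 45.7 in control CD41- libraries (response 1.99 ± 0.17, adjusted p = 9.49e-05). Its difference was -0.50 ± 0.25 (unadjusted p = 0.0671), and Cish, a further STAT5 target, had 0.24 ± 0.37.

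The 43 megakaryocyte and platelet genes had a median difference of 0.07. It ran from -0.19 without control CD41+ replicate 2 to 0.20 without control CD41+ replicate 1. At an unadjusted p under 0.05, 2 genes were positive (4.65% of the list, against 2.85% of all genes) and 1 was negative (2.33%, against 3.29%). These shares are close to those of all genes. Gp5, a subunit of the receptor of von Willebrand factor on platelets, stood at 41.2, 40.8 and 23.3 CPM in depleted CD41+ libraries against 81.8 and 83.1 in control CD41+ libraries, and at 5.91, 3.35 and 4.26 in depleted CD41- libraries against 27.2, 17.3 and 27 in control CD41- libraries. Depleted libraries were below control libraries in both fractions (over all genes, 27% had no overlap in CD41+ cells and 25% in CD41- cells). Gp5 had a response of -1.25 ± 0.33 in CD41+ cells (adjusted p = 0.167) and fell in CD41- cells (-2.36 ± 0.33, adjusted p = 0.00147). Its difference was 1.12 ± 0.46. Pf4, a platelet chemokine, had a response of -2.03 ± 0.48 in CD41+ cells and also fell in CD41- cells (-2.42 ± 0.47, adjusted p = 0.0144), with a difference of 0.40 ± 0.66. F2r, a thrombin receptor, had 337, 285 and 224 CPM in depleted CD41+ libraries against 429 and 421 in control CD41+ libraries, and 210.3, 221 and 199 in depleted CD41- libraries against 144, 197 and 216 in control CD41- libraries (difference -0.78 ± 0.27). Ppbp, a chemokine precursor of platelet granules, was at or below 9.73 CPM in all libraries (difference 3.02 ± 1.19). Itga2b itself had responses of -0.88 ± 0.26 in CD41+ cells and -0.71 ± 0.24 in CD41- cells and a difference of -0.17 ± 0.36, and Gata1 and Nfe2, transcription factors of the lineage, had -0.04 ± 0.59 and 0.13 ± 0.23.

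The 14 genes called in CD41+ cells at an adjusted p under 0.05 all had the same sign in CD41- cells. Of these, 12 were called there too (against 3.19% of all genes), the exceptions being Dnajc2 and Cpq. The genes that rose in CD41+ cells were Dnajc2, Myh10, Socs2, Podxl and Smc2, and those that fell were Cpq, H2-T23, 2410006H16Rik, Limd2, Ctsf, Ramp1, Txnip, H2-Q6 and Gm19590. Myh10, a non-muscle myosin heavy chain, had 15.6, 21.6 and 27.4 CPM in depleted CD41+ libraries against 2.14 and 0.774 in control CD41+ libraries, and 18.6, 23.5 and 17 in depleted CD41- libraries against 5.23, 2.36 and 5.35 in control CD41- libraries. Podxl, podocalyxin, a sialomucin of blood vessels and stem cells, had 31.1, 34.3 and 34.7 CPM in depleted CD41+ libraries against 2.94 and 5.42 in control CD41+ libraries, and 18.7, 17 and 24.6 in depleted CD41- libraries against 6.6, 3.66 and 3.4 in control CD41- libraries. Neither gene's depleted and control libraries overlapped in either fraction, against 27% of all genes without overlap in CD41+ cells and 25% in CD41- cells. The differences were 1.71 ± 0.69 for Myh10 (unadjusted p = 0.026) and 0.85 ± 0.55 for Podxl (unadjusted p = 0.143).

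Ramp1, a co-receptor of the calcitonin receptor-like receptor, fell to 135, 115 and 105 CPM in depleted CD41+ libraries against 255 and 266 in control CD41+ libraries, and to 170.2, 204 and 158 in depleted CD41- libraries against 294, 379.8 and 393 in control CD41- libraries (difference -0.15 ± 0.25, interval -0.68 to 0.39). H2-Q6 and H2-T23, MHC class I genes whose near-identical relatives may share reads, had differences of -0.03 ± 0.20 and -0.41 ± 0.23. Of the 14 genes, Dnajc2 and Myh10 had an unadjusted p under 0.05 for the difference, both with the larger response in CD41+ cells. Over all genes, 6.13% reached that level, 2.85% with a positive difference. The 14 genes were chosen by their CD41+ values, which are part of the difference, so larger CD41+ responses are favoured by choice. Read from the other side, 279 of the 309 genes that rose in CD41- cells (90.3%) had a positive value in CD41+ cells, with medians of 0.42 in CD41+ cells and 1.18 in CD41- cells. Of the 120 that fell, 115 (95.8%) had a negative value in CD41+ cells, with medians of -0.79 and -1.11. These genes were chosen by their CD41- values, which makes their CD41- medians large by choice, so the gap between medians is a description. The share of the same sign over all genes was not counted, so 90.3%, 95.8% and the shared sign of the 14 genes are descriptions too. The 78 of the 309 that are on the cell cycle lists had medians of 0.37 in CD41+ cells and 1.41 in CD41- cells, and the other 231 had 0.44 and 1.07. Over all 13448 genes the responses of the fractions had a Pearson correlation of 0.25 and a Spearman correlation of 0.32 across genes, which are not independent. The fractions share no library, but deviations of libraries with adjoining title numbers correlated, and whether such libraries share mice is not known.

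**Figure D4:**
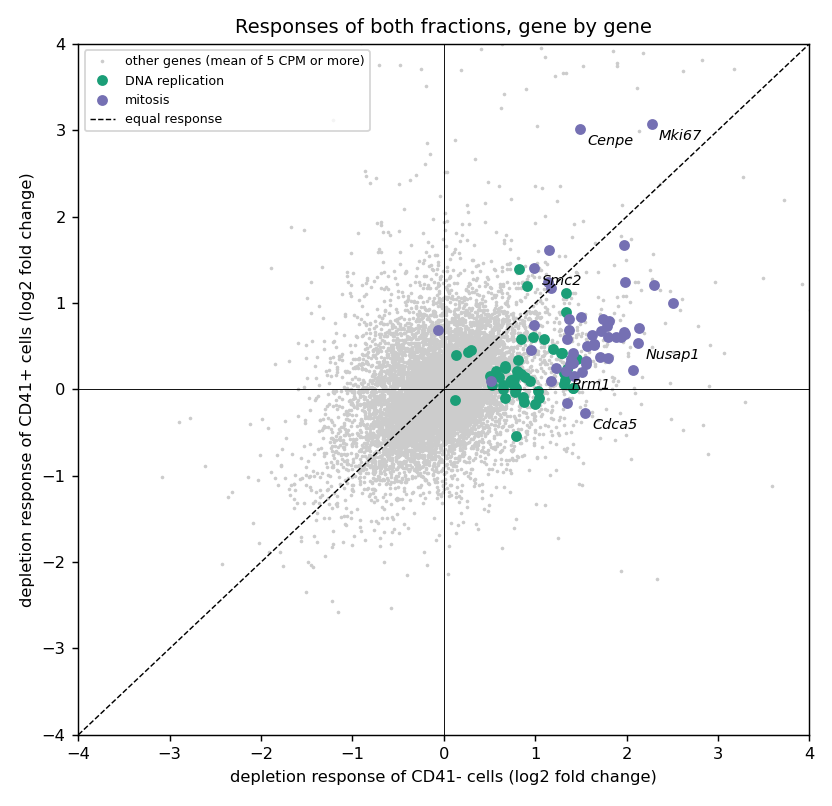
Depletion response of CD41+ cells (vertical axis, log2 fold change) against that of CD41- cells (horizontal axis, log2 fold change), with 1 point for each gene that averaged 5 CPM or more, and the dashed line where both are equal. Of 10810 such genes, 25 lie outside the axes at 4. Most mitosis and DNA replication genes lie to the right of 0 and below the line, with medians of 0.60 and 0.15 in CD41+ cells and 1.56 and 0.83 in CD41- cells, and Smc2, Mki67 and Cenpe lie above it.

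Other programmes had medians near that of all genes or spread widely. The 31 proteasome subunits had a median difference of -0.01, with responses of 0.44 in CD41+ cells and 0.38 in CD41- cells, and the 50 genes of MYC and ribosome biogenesis had 0.21, with 0.44 in CD41+ cells and 0.23 in CD41- cells. Cytosolic ribosomal protein genes had a positive difference in 50 of 55 cases, a median of 0.20 and 0 at an unadjusted p under 0.05, and the median was -0.01 without control CD41- replicate 2. Interferon-stimulated genes had a negative difference in 35 of 41 cases, with a median of -0.34. At an unadjusted p under 0.05, 1 was negative (2.44% of the list, against 3.29% of all genes). It was Ifit2 (-1.13 ± 0.51), an inhibitor of viral translation. The interferon median moved to -0.52 when depleted replicate 3 of the CD41+ fraction was left out and to -0.19 when its control replicate 2 was. In the CD41- fraction, leaving out depleted replicate 3 gave -0.18 and leaving out control replicate 2 gave -0.54. Their mean deviation was lowest in depleted CD41+ replicates 1 and 2 (-0.85 and -0.66) and was -0.04 in replicate 3. The 7 mitochondrially encoded genes measured had a median of 0.42, with mean deviations of -0.37, -0.54 and 0.02 in depleted CD41+ libraries against -0.33 and -0.88 in control CD41+ libraries, and 0.39, 0.12 and 0.29 in depleted CD41- libraries against 0.29, 0.54 and 0.46 in control CD41- libraries. Cholesterol synthesis, the unfolded protein response, and p53 and apoptosis genes had medians of 0.07, 0.00 and -0.02, each of which changed sign when single libraries were left out.

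**Figure D5:**
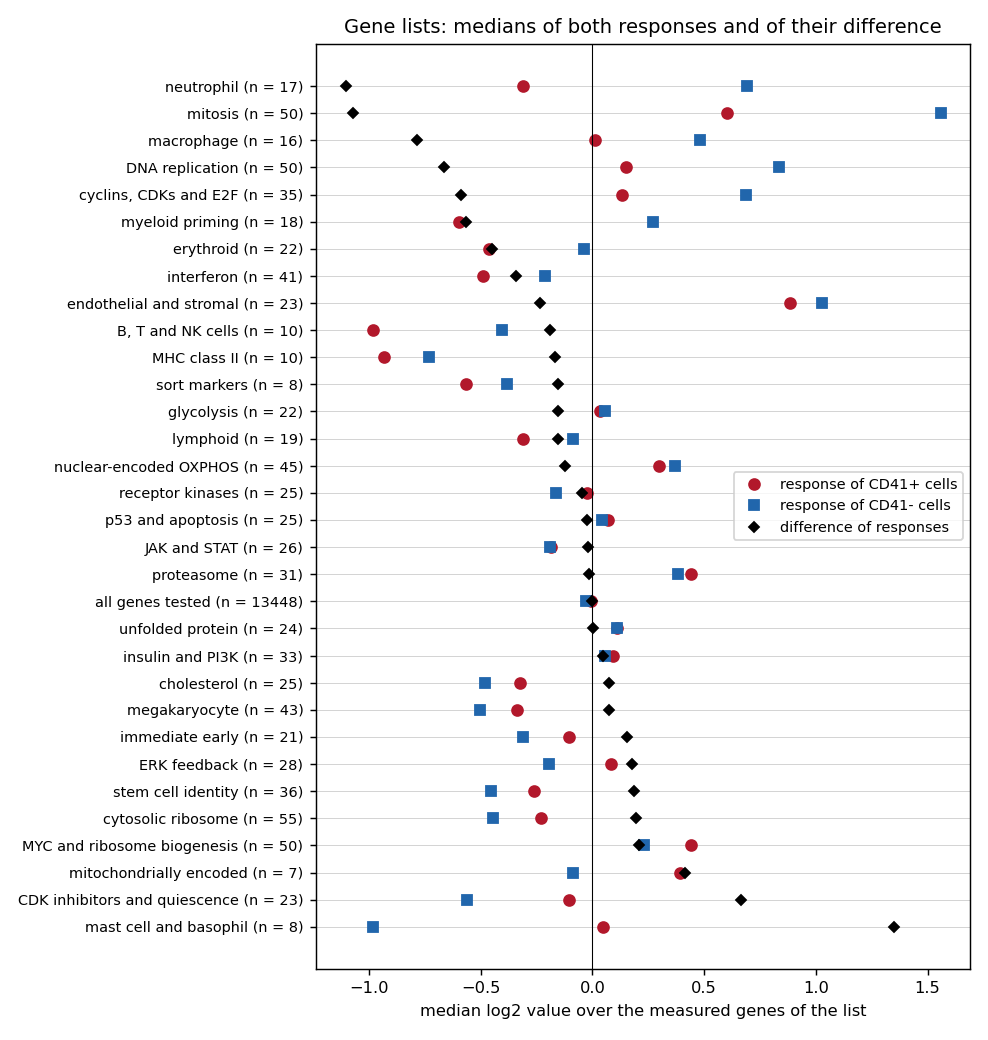
Median log2 value (horizontal axis) over the measured genes of each gene list and over all 13448 genes tested, for the response of CD41+ cells (circles), the response of CD41- cells (squares) and their difference (diamonds), ordered by the difference. Mitosis, DNA replication and cyclin genes have larger medians in CD41- cells than in CD41+ cells, the neutrophil list has the lowest median difference at -1.10, and the mast cell and basophil list the highest at 1.35.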

How the data were processed

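RNA from sorted cells was reverse transcribed from poly-dT primers with template switching, amplified over 17 cycles, tagmented and indexed over 12 cycles, per the labels' protocols. Per the submitters' processing notes, which name the builds GRCm38 and mm10, the tools were cutadapt, STAR and HTSeq 0.6.1p1. The deposited values are the raw counts per gene made by the authors in this way. No strand setting or annotation release is given in those notes. Poly-dT priming and amplification can affect recovery by transcript length, whose part was tried through an offset only.

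GENCODE M21 (GRCm38) gave symbols for 49326 of the 49585 table entries, and coordinates and transcript lengths. The filterByExpr function (10 counts, total of 15) retained 13448 genes, holding 99.7% of counts. TMM-scaled counts entered the robust quasi-likelihood model of edgeR 4.0.16 (R 4.3.3), with 1 coefficient per group over all 11 libraries and 7 residual degrees of freedom. The contrasts were the response of CD41+ cells, the response of CD41- cells and their difference, each adjusted by Benjamini-Hochberg over all genes kept, with a threshold of 0.05. The SE is the absolute log2 value over the square root of F, and intervals are 95%. Levels are TMM-normalised CPM. Replicates were numbered in order of deposit.

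Named genes were the 12 with the smallest p of the difference in each direction among genes with a symbol, averaging 5 CPM or more and with no more than 2 group means at 0, for lists described in detail the 3 with the smallest p, the sort markers, and the receptors Kit, Insr and Igf1r. A gene of this rule is not reported here, and lists given only by count or median are described without theirs. Genes called in CD41+ cells and other list members named in the text were chosen after their values were seen. There were 31 lists with 867 distinct genes, of which 4 were not in the table. The members and lists were chosen with earlier results of these data known, and no list was tested as a set.

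Title numbers of CD41- and CD41+ libraries adjoin within a treatment, and the labels do not say that this pairs them. Deviations from group means of adjoining libraries correlated at 0.32, 0.43 and 0.28 in depleted mice and 0.11 and 0.10 in control mice. Other combinations gave -0.28 to 0.00. Such deviations cancel within a group, so positive values for adjoining libraries force negative ones elsewhere, and these ranges are not independent. A block of these numbers was fitted as an alternative. Further alternatives were other scalings, other filters on low counts, the fit without robust, DESeq2 1.42.0, limma 3.58.1 voom with sample quality weights, leaving out each library, and, added after seeing the data, an offset for transcript length. Promoters of 300 bases came from the RefSeq table, and the fit was tested on simulated data. Python 3.11.15 with matplotlib 3.10.9 drew the figures.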

Additional observations from a re-analysis of the deposited data

How the results depend on the processing

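The count of 0 genes called for the difference by edgeR also held with RLE factors, library size alone, the filter at 50 counts, the fit without robust, limma voom, the length offset and without each library in turn (0 in each, range 0 to 0). It was 178 with no filter on low counts, 34 with DESeq2 and 2 with the replicate block of adjoining title numbers, and the cause was not tested. The count at an unadjusted p under 0.05 was 1609 with no filter and 644 to 1056 without each library. The list counts carried the same sign throughout for mitosis, with 27 to 37 negative genes at an unadjusted p under 0.05 over all settings. The CD41+ response called 317 genes with no filter, 7 without robust, 250 with DESeq2, 8 with limma voom, 28 with the length offset, and 0 to 57 without each library. The CD41- response called 862 genes with no filter, 817 with DESeq2 and 169 to 560 without each library. With a control CD41+ library left out, the remaining one was assumed to vary like the other groups.

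Of the named genes, differences near 0 changed sign. Cd34 was -0.0206 with no filter and -0.0215 with limma voom, and -0.0592 to 0.115 without each library. Cd48 was 0.19 with the replicate block and -0.70 to 0.50 without each library. Leaving out each library gave -0.516 to 0.0489 for Itga2b, -0.94 to 0.26 for Kit and -0.23 to 0.47 for Ly6a. The 12 negative and 12 positive genes with the smallest p kept their sign in every alternative that gave them a value. DESeq2, fitted to 25078 genes, had a median difference over all genes of 0.105. The replicate block changed no other call of the difference and was not applied to the responses of each fraction alone.

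Depth limits the genes at few CPM, above all in depleted CD41+ replicate 1, where 3 counts equal 3.08 CPM. The 2 control CD41+ libraries limit both the CD41+ response and the difference.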

Other observations

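Among genes of other cell types, Slc4a1, the anion exchanger of red cells, stood at 8.9, 8.82 and 7.28 CPM in depleted CD41+ libraries against 38.2 and 37.9 in control CD41+ libraries, and at 56.4, 9.63 and 4.73 in depleted CD41- libraries against 0, 6.28 and 7.78 in control CD41- libraries. It was listed at 0 in control CD41- replicate 1, and it was high in depleted CD41- replicate 1 alone within its group. The 22 erythroid genes had a median difference of -0.45, with 16 negative, and a median of 0.15 without depleted CD41- replicate 1. Fcnb, a ficolin of granulocyte progenitors, had 142, 112 and 169.6 CPM in depleted CD41+ libraries against 197 and 409 in control CD41+ libraries, and 198, 28.1 and 89.9 in depleted CD41- libraries against 43.5, 39.8 and 28.5 in control CD41- libraries. All 18 genes of myeloid priming had a negative difference, with a median of -0.57, and the median was 0.51 without control CD41+ replicate 2. At an unadjusted p under 0.05, 1 was negative, Fcnb (5.56% of the list, against 3.29% of all genes).

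Stromal and endothelial genes varied by library. Cxcl12, a niche chemokine, was at 287, 140 and 277 CPM in depleted CD41+ libraries against 188 and 76.2 in control CD41+ libraries, and at 1.51, 0.221 and 289 in depleted CD41- libraries against 1.45, 1.81 and 0.516 in control CD41- libraries, scaled by library totals alone. It was thus high in all 5 CD41+ libraries and in depleted CD41- replicate 3. Kitl, which encodes stem cell factor, was listed at 0 in the 3 control CD41- libraries, and had 5.56, 1.37 and 8.45 CPM in depleted CD41+ libraries, 6.41 and 3.1 in control CD41+ libraries and 0.204, 0.838 and 2.84 in depleted CD41- libraries. Stab2, a scavenger receptor of sinusoidal endothelium, had 7.79, 23.9 and 31.8 CPM in depleted CD41+ libraries against 6.68 and 3.87 in control CD41+ libraries, and 1.43, 3.14 and 4.73 in depleted CD41- libraries against 4.4, 2.09 and 2.43 in control CD41- libraries (difference 2.03 ± 0.88, unadjusted p = 0.036). Mcpt8, a protease of basophils, was at 31.8, 2.21 and 17.7 CPM in depleted CD41+ libraries against 8.48 and 3.98 in control CD41+ libraries, and at 65.4, 0.441 and 1.44 in depleted CD41- libraries against 0, 0.516 and 154 in control CD41- libraries, on the same scale as Cxcl12. The 8 mast cell and basophil genes measured had a median difference of 1.35, with 6 positive, and a median of -1.86 without control CD41- replicate 3.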
